A study of Mus musculus with 25 samples.

Results

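The genes that glucocorticoids are known to act through or to induce were followed in mouse soleus muscle at rest and after treadmill running: Nr3c1, Fkbp5, Tsc22d3, Zbtb16, Ddit4, Sgk1, Cebpb, Cebpd and Errfi1. They were taken by name from a table of 52636 genes, and 9 of 9 were present with enough reads to be tested. RNA came from the soleus of 25 mice, aged 12 weeks, on a C57BL/6 background, all homozygous for a Dnmt3a allele with exon 19 floxed. WT mice carried no Cre, and KO mice (mD3AKO) carried Cre under the muscle creatine kinase promoter, which is active late in myofiber differentiation, so that satellite cells and cells that are not muscle presumably keep Dnmt3a. Exercised mice ran for 30 min at 16 m/min on a 5% incline and were killed 60 min later, and rested mice spent the same 30 min on a sham treadmill. The groups held 5 rested WT, 7 exercised WT, 7 rested KO and 6 exercised KO mice, with 12 females and 13 males in all, and every mouse was in a single group.

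Glucocorticoids, corticosterone in the mouse, are adrenal steroids whose plasma level rises with physical stress. They enter the cell, release the glucocorticoid receptor from its chaperones, and send it to the nucleus, where it binds DNA and changes transcription. In skeletal muscle the receptor is best known for restraining protein synthesis and promoting protein breakdown, and for shifting fuel use away from glucose. Most of the genes described here also answer to other signals, such as cyclic AMP, hypoxia, cytokines or growth factors, so a change in them is not by itself a measure of hormone.

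The response ran across most of the list, and the transcript of the receptor itself did not pass the test. In the test of exercise averaged over both genotypes, 8 of the 9 genes rose and 0 fell. Of the 16340 genes tested, 10.4% changed and 5.7% rose. The 9 genes and the lists below were chosen with earlier results of these data known, so such shares only describe them. The median log2 fold change of the 9 genes was 1.21, against -0.000883 over all genes. Ddit4 had the largest rise, followed by Cebpd, Tsc22d3, Sgk1, Errfi1, Fkbp5, Zbtb16 and Cebpb. No gene of the list passed the test for genotype or for an interaction of genotype with exercise. A gene is said here to rise or fall where the adjusted p of edgeR's quasi-likelihood test was below 0.05, and CPM are counts per 1000000 counts of a library after TMM scaling.

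The DNA just around the start sites shows what these genes do and do not have in common. RefSeq promoter windows of 300 bases (250 before and 50 after each start site, GRCm38.p6) were found for 6 of the 9 genes (none for Nr3c1, Zbtb16 and Cebpd), 14 windows in all, and 4 are printed 5′ to 3′ on the gene's own strand because they belong to genes with clear rises and differ in their motifs. Capitals mark the 6 letters AGAACA or the reverse complement TGTTCT, the arms of the palindrome bound by the glucocorticoid receptor, and in Errfi1 they mark TGACGTCA, the palindromic cyclic AMP response element. The windows are Sgk1 at chr10:21993640-21993939 (plus strand, an internal start site of the gene), Tsc22d3 at chrX:140600473-140600772 (minus strand), Errfi1 at chr4:150854820-150855119 (plus strand, also an internal start site) and Ddit4 at chr10:59951721-59952020 (minus strand).
Sgk1: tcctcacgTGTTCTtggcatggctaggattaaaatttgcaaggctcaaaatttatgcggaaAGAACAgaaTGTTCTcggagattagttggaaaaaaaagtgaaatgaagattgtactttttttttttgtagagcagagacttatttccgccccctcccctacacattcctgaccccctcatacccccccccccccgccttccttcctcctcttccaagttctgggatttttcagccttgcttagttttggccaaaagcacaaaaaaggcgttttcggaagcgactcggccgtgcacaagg
Tsc22d3: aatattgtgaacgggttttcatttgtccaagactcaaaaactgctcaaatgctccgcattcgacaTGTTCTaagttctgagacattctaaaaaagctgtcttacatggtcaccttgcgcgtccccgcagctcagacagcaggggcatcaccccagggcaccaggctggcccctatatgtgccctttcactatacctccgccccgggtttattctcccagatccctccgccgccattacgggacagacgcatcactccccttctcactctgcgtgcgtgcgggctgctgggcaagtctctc
Errfi1: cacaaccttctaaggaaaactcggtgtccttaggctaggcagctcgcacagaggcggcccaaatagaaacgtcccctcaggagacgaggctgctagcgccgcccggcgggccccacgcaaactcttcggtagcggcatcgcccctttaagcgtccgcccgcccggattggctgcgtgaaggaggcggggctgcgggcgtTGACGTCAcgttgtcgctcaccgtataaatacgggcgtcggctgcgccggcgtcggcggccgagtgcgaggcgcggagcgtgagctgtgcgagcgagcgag
Ddit4: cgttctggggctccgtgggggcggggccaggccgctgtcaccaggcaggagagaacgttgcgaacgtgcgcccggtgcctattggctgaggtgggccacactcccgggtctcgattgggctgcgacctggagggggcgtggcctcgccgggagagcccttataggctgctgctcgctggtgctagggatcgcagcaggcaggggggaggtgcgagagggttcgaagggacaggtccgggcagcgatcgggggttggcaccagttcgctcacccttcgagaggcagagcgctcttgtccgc

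The printed Sgk1 window holds the complete palindrome, AGAACA and TGTTCT separated by 3 bases, with its first base 189 bases before the start. This arrangement occurred in 1 of the 14 windows and in 3 of the 32851 windows of the whole promoter set (0.00913%). That set holds no window from chromosome 18, where Nr3c1 lies. A single 6-letter arm was found in 4 of the 14 windows, belonging to Sgk1 and Tsc22d3, and in 19.0% of all windows, and these 4 include the window with the palindrome. The TGACGTCA element stood 51 bases before this Errfi1 start, and 1.79% of all windows hold it. The window of the upstream Errfi1 start, at chr4:150853546-150853845, held neither motif. Sgk1 and Tsc22d3 also have further windows: those of Sgk1 held a single arm or none, and those of Tsc22d3 held none. Which start sites are used in soleus was not examined. TGACGTCA reads the same on both strands, as does the receptor palindrome outside its 3-base gap. The windows of Ddit4, Fkbp5 and Cebpb held neither motif, which says only that these letters were not in those 300 bases. Enhancers, where most receptor binding is known to lie, were not examined.

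Nr3c1 encodes the glucocorticoid receptor itself (chr18:39410545-39491301, mm10, minus strand). Its level was 150 ± 14.1 CPM in rested WT (SD, n = 5), 144 ± 15.4 in exercised WT (n = 7), 153 ± 18.9 in rested KO (n = 7) and 137 ± 20.8 in exercised KO (n = 6). Over all 25 mice it ran from 115 to 185 CPM, and the 4 groups overlapped. The log2 fold change with exercise was -0.11 (SE 0.0671, adjusted p = 0.364), with a 95% interval from -0.25 to 0.03. The gene did not pass the test, and changes larger than that interval are not supported by these mice.

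Fkbp5 encodes FKBP51, a co-chaperone that lowers the receptor's affinity for hormone and forms a short feedback loop (chr17:28399095-28517524, minus strand). In the 5 rested WT mice it measured 60.5, 32.0, 30.2, 30.0 and 31.7 CPM in mice 1, 11, 13, 14 and 20. The 7 rested KO mice ran from 26.4 to 63.2 CPM with a median of 33.4. The 7 exercised WT mice ran from 54.0 to 107 CPM with a median of 70.0, and the 6 exercised KO mice from 59.7 to 71.6 with a median of 68.6. Rested and exercised mice overlapped because 3 rested mice were high, namely mice 1, 2 and 24 at 60.5, 63.2 and 55.1 CPM, while the highest of the other rested mice was at 39.8. All 3 were female. Fkbp5 rose with exercise by 0.89 on the log2 scale (SE 0.147, adjusted p = 0.000112). In females the rise was 0.67 and passed in the edgeR model of both sexes (adjusted p = 0.0272), and it was 0.66 and did not pass when edgeR was fitted to females alone (adjusted p = 0.134). Of the 5 rested females 3 were the high mice.

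Tsc22d3 encodes GILZ, a leucine zipper protein that carries part of the anti-inflammatory action of glucocorticoids (chrX:140539528-140600659, minus strand). The 5 rested WT mice measured 87.6, 126, 112, 104 and 93.7 CPM in the same order of mice. The 7 exercised WT mice ran from 224 to 280 CPM with a median of 235. Rested KO mice ran from 55.1 to 98.7 with a median of 82.5, and exercised KO mice from 191 to 262 with a median of 216. No rested mouse reached the lowest exercised mouse, a gap from 126 to 191 CPM. The rise was 1.33 (SE 0.0806, adjusted p = 5.59e-12), the smallest adjusted p among the 9 genes, and the mean level was 2.57-fold higher after exercise.

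Zbtb16 encodes PLZF, a zinc finger transcription factor that is among the most hormone-dependent glucocorticoid targets in many cell types (chr9:48654297-48836222, minus strand). Rested WT mice measured 74.9, 56.5, 54.7, 60.1 and 54.9 CPM. Exercised WT mice ran from 91.5 to 121 CPM with a median of 97.7. Rested KO mice ran from 37.4 to 72.2 with a median of 58.7, and exercised KO mice from 77.6 to 119 with a median of 98.8. The states did not overlap, though the gap was narrow, from 74.9 to 77.6 CPM. Zbtb16 rose by 0.77 (SE 0.0891, adjusted p = 6.45e-07).

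Ddit4 encodes REDD1, which releases the TSC complex from inhibition and so lowers mTORC1 activity and protein synthesis (chr10:59949669-59951834, minus strand). Rested WT mice measured 5.58, 12.8, 10.5, 6.48 and 11.6 CPM. Exercised WT mice ran from 45.3 to 69.1 CPM with a median of 62.4. Rested KO mice ran from 4.08 to 17.6 with a median of 7.48, and exercised KO mice from 35.4 to 58.1 with a median of 41.7. The states were far apart, with a gap from 17.6 to 35.4 CPM. The mean rose 5.74-fold, and the log2 fold change of 2.48 (SE 0.177, adjusted p = 1.35e-10) was the largest of the list. Its relative Ddit4l, a second mTORC1 inhibitor abundant in muscle, fell by 0.56 in the same test (adjusted p = 0.00171).

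Sgk1 encodes a kinase related to AKT that acts on ion transport and on FOXO factors (chr10:21882184-21999903, plus strand). Rested WT mice measured 39.7, 102, 102, 80.1 and 62.5 CPM, a wide spread for rest. Exercised WT mice ran from 140 to 187 CPM with a median of 165. Rested KO mice ran from 36 to 81.8 with a median of 61.4, and exercised KO mice from 136 to 196 with a median of 162. The states did not overlap, with a gap from 102 to 136 CPM. Sgk1 rose by 1.24 (SE 0.135, adjusted p = 2.36e-07).

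Cebpb and Cebpd encode C/EBP transcription factors that are induced early by glucocorticoids, cyclic AMP and cytokines. Cebpb (chr2:167688915-167690418, plus strand) measured 22.4, 20.5, 21.7, 15.2 and 12.2 CPM in rested WT mice and 22.5 to 35.6 in exercised WT, with a median of 27.7. In KO mice it ran from 13.9 to 23.3 at rest, with a median of 18.7, and from 23.9 to 32.0 after exercise, with a median of 27.5. The states separated within each genotype, but over both genotypes 2 exercised WT mice lay below the highest rested KO mouse. Cebpb had the smallest rise of the 8, at 0.64 (SE 0.108, adjusted p = 0.000153).

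Cebpd (chr16:15887286-15891031, plus strand) measured 6.33, 8.34, 10.7, 3.98 and 3.93 CPM in rested WT mice and 16.2 to 34.8 in exercised WT, with a median of 20.7. In KO mice it ran from 4.34 to 7.62 at rest, with a median of 4.65, and from 17.0 to 25.0 after exercise, with a median of 18.9. The states did not overlap. The mean rose 3.71-fold, and the log2 fold change was 1.86 (SE 0.163, adjusted p = 5.78e-09). On the mm10 annotation, exons of Cebpb overlap exons of Tmem189, and exons of Cebpd overlap exons of Spidr, on the opposite strand. Over all mice the table holds 7958 reads for Tmem189 against 18975 for Cebpb, and 2053 for Spidr against 11439 for Cebpd. The libraries were stranded, but whether the counting used strand was not stated, so part of these 2 levels is uncertain.

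Errfi1 encodes MIG6, a feedback inhibitor of the EGF receptor family (chr4:150853919-150868892, plus strand). Rested WT mice measured 25.1, 90.0, 136, 21.1 and 24.7 CPM, so mice 11 and 13, both male, stood far above the other three. The 7 rested KO mice lay between 18.1 and 27.4 CPM with a median of 21.8. Exercised WT mice ran from 65.5 to 106 CPM with a median of 99.6, and exercised KO mice from 50.6 to 109 with a median of 78.8. None of the 13 exercised mice exceeded mouse 13, while 13 of 13 exceeded the rested median. The rise was 1.21 (SE 0.233, adjusted p = 0.000664), and it was 1.5 without mouse 13 (adjusted p = 7.52e-06). Mice 11 and 13 were also the highest rested mice for Cebpd, Sgk1 and Tsc22d3 but not for Fkbp5 or Zbtb16.

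**Figure D1:**
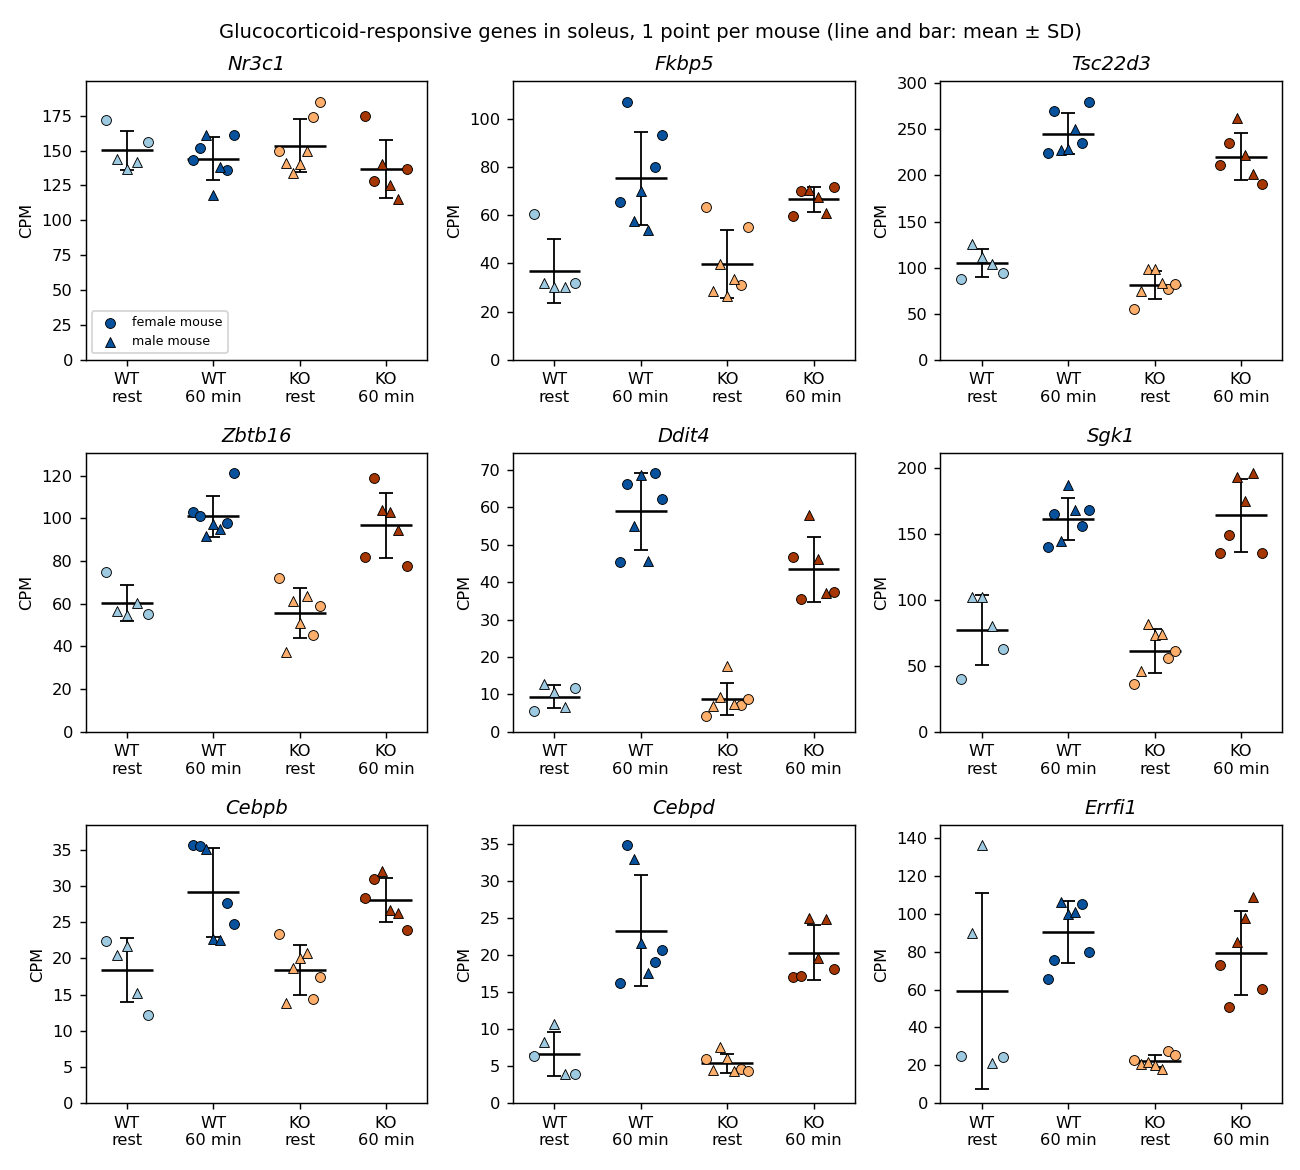
Level of the 9 genes in CPM (y axes, from 0) in each mouse by genotype and exercise (x axes), with circles for females, triangles for males, and lines and bars for mean and SD. Tsc22d3, Zbtb16, Ddit4, Sgk1 and Cebpd have no rested mouse as high as any exercised mouse, Nr3c1 stays between 115 and 185 CPM throughout, and rested WT Errfi1 is split between 21.1 to 25.1 CPM in 3 mice and 90.0 and 136 CPM in 2.

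For 5 of the 9 genes (Tsc22d3, Zbtb16, Ddit4, Sgk1 and Cebpd) every exercised mouse stood above every rested mouse, 13 against 12, which held for 0.765% of all genes tested. For Cebpb 11 of 13, and for Fkbp5 9 of 13, exercised mice exceeded the highest rested mouse. Levels between genes can be compared only per length. At rest, Tsc22d3 and Nr3c1 led with means of 21.0 and 20.5 CPM per kb of exon, followed by Sgk1 (13.8), Cebpb (12.2), Zbtb16 (10.9), Errfi1 (10.6), Fkbp5 (6.05), Ddit4 (5.14) and Cebpd (1.58). The SD over the 12 rested mice was 4.33 for Tsc22d3, 2.22 for Nr3c1, 4.45 for Sgk1 and 10.2 for Errfi1, so Tsc22d3 and Nr3c1, and the genes from Sgk1 to Errfi1, lay within each other's spread, as did Fkbp5 and Ddit4. After exercise the mean of Ddit4 was 29.5 CPM per kb, behind Tsc22d3 (53.9) and Sgk1 (33.2) and ahead of Errfi1 (23.8), Nr3c1 (19.0), Cebpb (19.0), Zbtb16 (18.7), Fkbp5 (11.2) and Cebpd (5.85). Ddit4 thus went from next to last at rest to the third place, within the spread of Sgk1 above it and Errfi1 below it (SD 6.95 for Ddit4, 4.3 for Sgk1 and 5.43 for Errfi1, n = 13).

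The rises were next taken within each genotype, since the study asked whether loss of DNMT3A changes the answer to exercise. In KO mice 8 of the 9 genes rose, against 3.7% of all genes, and in WT mice 7 of the 9 rose, against 2.16% of all genes. The Fkbp5 call in KO (0.75) was lost when any of 3 single mice was left out (adjusted p up to 0.0521). Its value ran from 0.43 to 1.04 under 6 alternatives, and 2 of them lost the call. The Cebpb call in WT was lost without mouse 14 (adjusted p = 0.0591) or mouse 20 (adjusted p = 0.0609), and in each sex alone. Ddit4 rose by 2.65 in WT (95% interval 2.11 to 3.19) and by 2.31 in KO (1.83 to 2.80). Tsc22d3 rose by 1.23 in WT (0.98 to 1.47) and by 1.44 in KO (1.21 to 1.66). The intervals of the 2 genotypes overlapped for each of the 9 genes. The gene that passed in KO and not in WT was Errfi1, with 1.82 in KO (SE 0.32, adjusted p = 0.000496) and 0.61 in WT (SE 0.334, adjusted p = 0.518). Its WT value rests on mouse 13, without which it was 1.17 and passed (adjusted p = 0.026), while without mouse 14 it was 0.39 (adjusted p = 0.856). In females alone it was 1.70 (adjusted p = 0.000637) and in males alone 0.31 (adjusted p = 0.943).

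**Figure D2:**
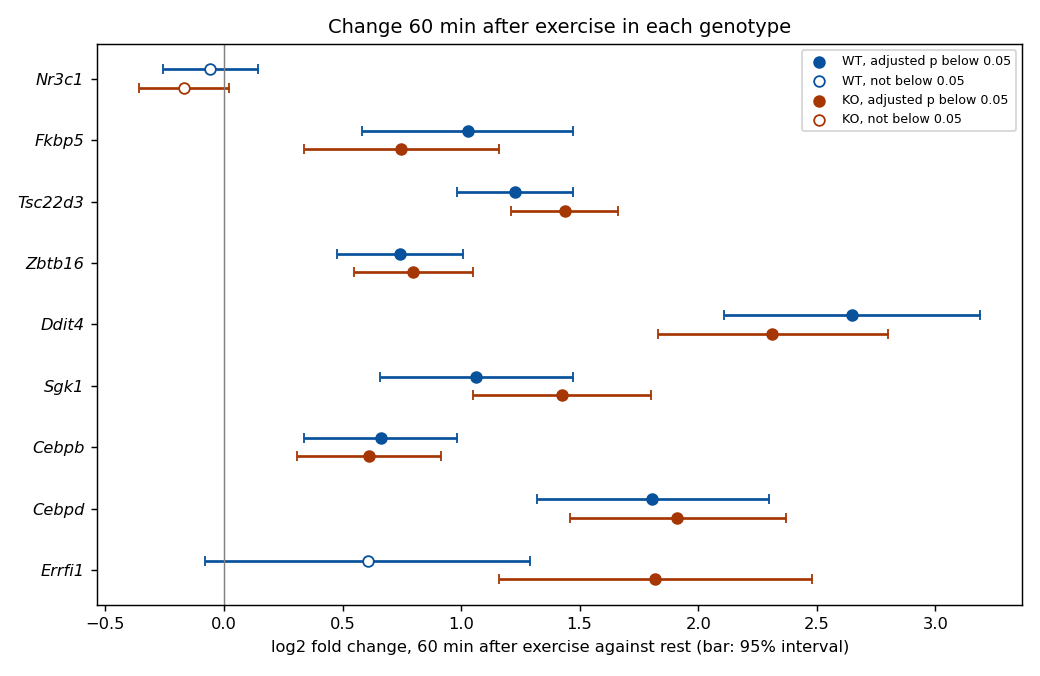
Log2 fold change 60 min after exercise against rest (x axis) for each gene (y axis) in WT (blue) and KO (brown), with 95% intervals as bars and filled points where the adjusted p was below 0.05. The intervals overlap for every gene, and Errfi1 shows the widest separation, 0.61 in WT and 1.82 in KO.

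The interaction, which tests the difference between those 2 rises directly, was passed by 0 of the 9 genes and by 0% of all genes in edgeR, and by 0 of the 9 in DESeq2. At an unadjusted p under 0.05 in edgeR were 403 of the 16340 genes tested and 1 of the 9, Errfi1. Its rise was larger in KO by 1.21 (SE 0.454, unadjusted p = 0.0132 from edgeR, adjusted p = 1). Without mouse 13 the difference was 0.64, in males alone 1.95, and in females alone -0.43. For the other 8 genes the interaction ran from -0.34 for Ddit4 to 0.36 for Sgk1. Without KO mouse 12 the Ddit4 value was -0.07, and without single mice the Sgk1 value ran from 0.24 to 0.53. The intervals were wide, from -1.03 to 0.35 for Ddit4 and from -0.11 to 0.53 for Tsc22d3, so modest differences in either direction were not detectable with these mice.

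Genotype itself was checked first on the deleted gene. Dnmt3a measured 116 ± 13.2 CPM in WT (n = 12) and 40.9 ± 5.86 in KO (n = 13), from 93.4 to 131 and from 34.5 to 53.9, so every library matched its genotype label. With rest and exercise averaged, 0 of the 9 genes passed the genotype test in edgeR or in DESeq2, against 0.269% of all genes in edgeR. In edgeR 2 of the 9 had an unadjusted p under 0.05, against 6.23% of all genes. All 9 estimates were below 0, with a median of -0.16 against 0.01 over all genes. The sign of Nr3c1, Fkbp5 and Cebpb, which lay between -0.02 and -0.03, turned when single mice or a sex were left out. Tsc22d3 was lower in KO by -0.26 on the log2 scale (SE 0.0784, adjusted p = 0.307). Its sign was kept under every alternative tried, as were those of Zbtb16, Ddit4, Sgk1, Cebpd and Errfi1. At rest the Tsc22d3 value was -0.37 (SE 0.113, adjusted p = 0.701), with WT at 105 ± 15.2 CPM and KO at 81.3 ± 15.0.

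Errfi1 had the largest genotype estimate, -0.80 overall (SE 0.228, adjusted p = 0.254) and -1.40 at rest (SE 0.33, adjusted p = 0.178). At rest 0.0918% of all genes passed and after exercise 0.11%, and none of the 9 did in edgeR or DESeq2. In edgeR 2 of the 9 at rest and 0 after exercise had an unadjusted p under 0.05. Of the 16340 genes tested these were 597 and 900. The resting value of Errfi1 turns on single WT mice. It passed without mouse 14 (-1.62, adjusted p = 0.033) or mouse 20 (-1.6, adjusted p = 0.0438), which were low, and shrank to -0.84 without mouse 13 (adjusted p = 1). In females alone it was 0.01 and in males alone -2.02 (adjusted p = 0.19). DESeq2 gave -1.4 (adjusted p = 0.0536). The overall value was -0.52 without mouse 13, -0.20 in females alone and -1.05 in males alone, and did not pass in any of them. Ddit4 after exercise was 58.9 ± 10.3 CPM in WT and 43.5 ± 8.67 in KO, a difference of -0.44 with an interval from -0.90 to 0.02 (adjusted p = 0.908).

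Both sexes were present in every group, and sex separated some of these genes. With the 8 combinations of sex, genotype and exercise modelled and averaged, 3 of the 9 genes differed between males and females, against 8.15% of 17389 genes. Sgk1 was higher in males by 0.47 (SE 0.0964, adjusted p = 0.00389), with 79.8 ± 19.2 CPM in 7 rested males and 51.1 ± 12.4 in 5 rested females. After exercise it was 177 ± 19.0 in 6 males and 150 ± 13.5 in 7 females. Errfi1 was higher in males by 0.62 (SE 0.174, adjusted p = 0.0299). After exercise it measured 99.8 ± 8.53 CPM in 6 males and 72.7 ± 17.4 in 7 females. At rest the medians went the other way, 21.1 CPM in 7 males and 25.1 in 5 females, and the male mean of 46.9 ± 47.0 was raised by mice 11 and 13, against 25.1 ± 1.64 in females. The other 5 rested males, from 18.1 to 21.8 CPM, lay below every rested female, the lowest of which was at 22.8.

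Fkbp5 went the other way, lower in males by -0.43 (SE 0.116, adjusted p = 0.0243), with 31.5 ± 4.29 CPM in rested males and 48.3 ± 15.8 in rested females. This call was lost without mouse 1 (-0.29, adjusted p = 0.127). The Errfi1 call was also lost, at adjusted p from 0.0502 to 0.086, without any of mice 1, 6, 8, 11, 13, 20 or 24. Nr3c1 was lower in males by -0.18 and missed the threshold (SE 0.0579, adjusted p = 0.0543), and leaving out a mouse at a time brought it past the threshold for 8 of the 25 mice. The rise with exercise differed between the sexes for 0 of the 9 genes in edgeR, against 0.046% of all genes. An unadjusted p under 0.05 was reached by 2 of the 9, against 570 of 17389 genes. For Tsc22d3 the rise was 1.53 in females and 1.21 in males, and for Sgk1 it was 1.55 and 1.13. In edgeR 8 of the 9 genes rose in each sex in that model, against 2.23% of all genes in females and 3.78% in males.

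**Figure D3:**
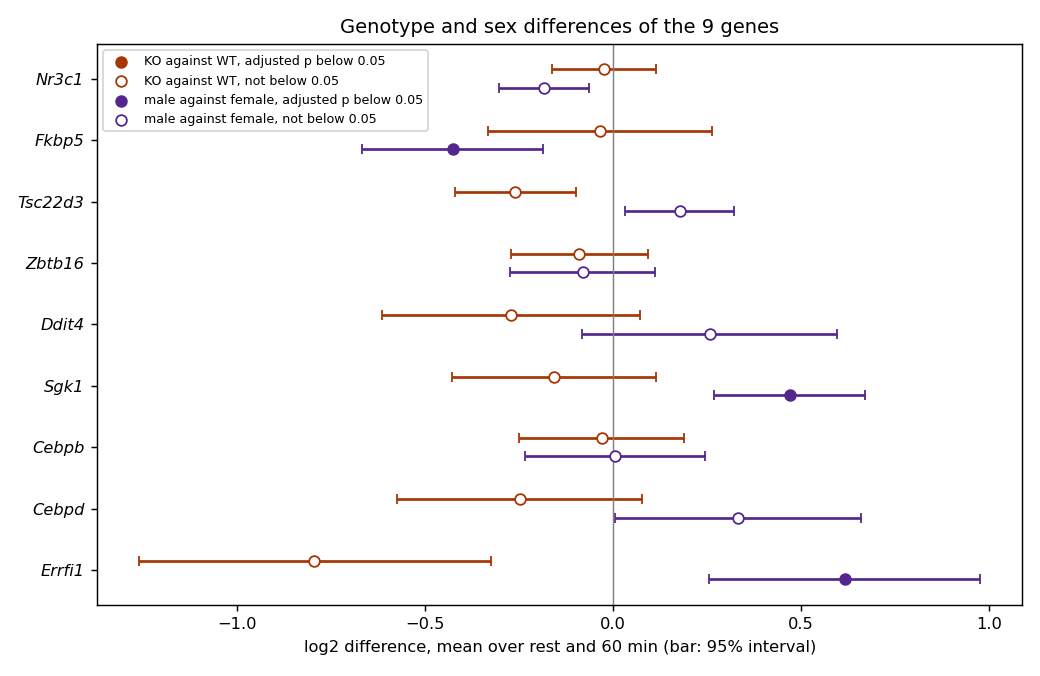
Log2 difference (x axis) between KO and WT (brown) and between males and females (purple) for each gene (y axis), averaged over rest and 60 min, with 95% intervals as bars and filled points where the adjusted p was below 0.05. No genotype value is filled, while Fkbp5 (-0.43), Sgk1 (0.47) and Errfi1 (0.62) are filled for sex.

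Mice of the same group still varied, and the genes did not all vary together. Each mouse's log2 CPM was expressed as a deviation from the mean of its group, and the 36 pairs of genes were correlated over 25 mice, with permutation p-values drawn within groups and adjusted over the 36 pairs. Tsc22d3 and Sgk1 were the tightest pair, with a Pearson's r of 0.79 (permutation p = 2e-05, adjusted p = 0.00072) and a Spearman's rho of 0.76 (permutation p = 0.00012, adjusted p = 0.00432). Without the 2 mice farthest from the median of Tsc22d3, r was 0.73, and with sex removed as well as group it was 0.73. Fkbp5 and Zbtb16 were the other pair that passed by both measures, with r of 0.65 (permutation p = 0.00113, adjusted p = 0.0167) and rho of 0.62 (permutation p = 0.00175, adjusted p = 0.0315). Their r was 0.49 without the 2 farthest mice and 0.64 with sex removed.

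Ddit4 went with Tsc22d3 (r = 0.73, adjusted permutation p = 0.0167) and with Sgk1 (r = 0.65, adjusted permutation p = 0.0475). By rank these relations did not pass, with rho of 0.56 (adjusted permutation p = 0.0861) and 0.53 (adjusted permutation p = 0.148). None of the other pairs passed by either measure. As any grouping of the genes here comes from these same tests, this is no separate evidence of distinct sets. For Fkbp5 and Tsc22d3 r was -0.29, but 0.17 without the 2 mice farthest from the median of Fkbp5 and -0.03 with sex removed. For Fkbp5 and Sgk1 r was -0.45, and the same steps gave 0.01 and -0.16. The 2 mice left out were mice 1 and 2, both female, and either step alone took most of the negative value away. For Tsc22d3 and Zbtb16 r was -0.00299. Mouse 2, a rested KO female, had the highest Fkbp5 of all rested mice at 63.2 CPM and the lowest Tsc22d3, Sgk1 and Ddit4, at 55.1, 36 and 4.08. Mouse 1, a rested WT female, had the highest rested Zbtb16 at 74.9 CPM, with Sgk1 at 39.7. No correlation of the receptor transcript with another of the genes passed. Its r with Sgk1 was -0.45 (adjusted permutation p = 0.0939) and its rho -0.55 (adjusted permutation p = 0.0861). Once sex was removed, that r was -0.02. All genes of a mouse share its library, so a fault common to a library would enter each pair.

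**Figure D4:**
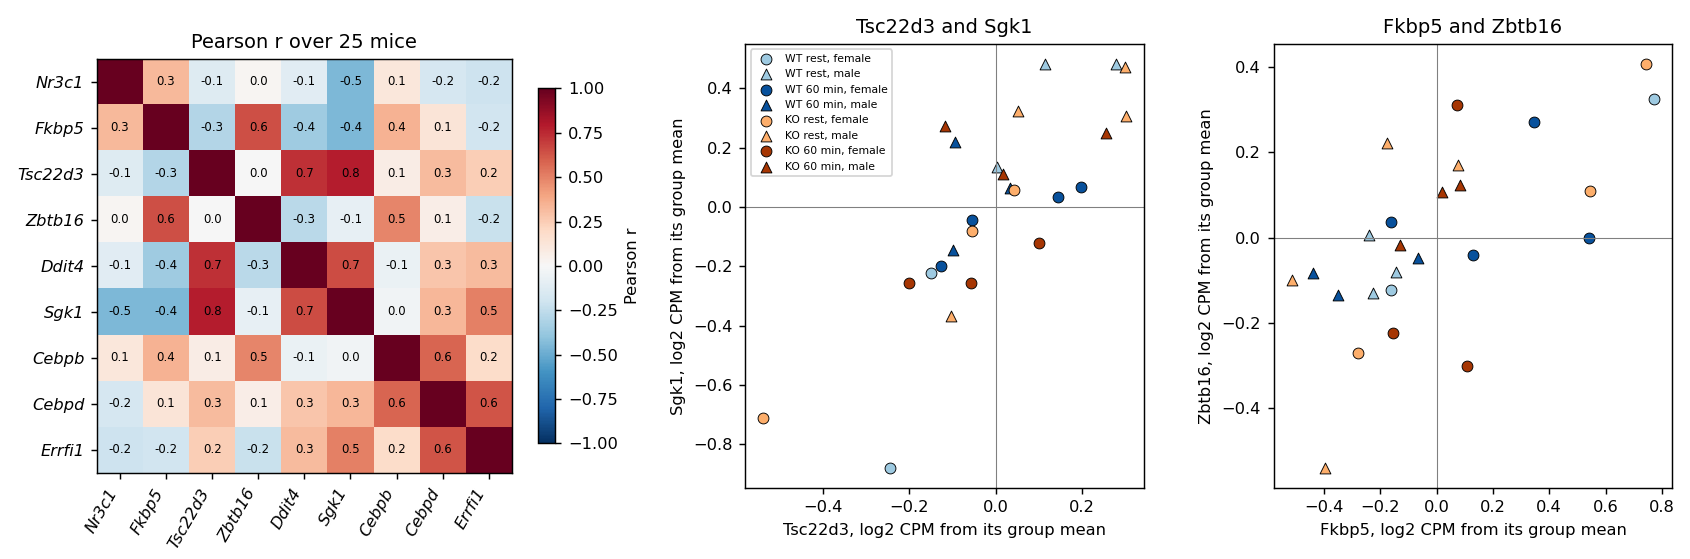
Left, Pearson's r (colour scale from -1 to 1) between the 9 genes over 25 mice, from deviations of log2 CPM from the group mean. Middle and right, those deviations for Tsc22d3 against Sgk1 (r = 0.79) and for Fkbp5 against Zbtb16 (r = 0.65), with 1 point per mouse, colours for groups, circles for females and triangles for males.

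Genes outside the list were ranked by how closely their deviations followed each of the 3 most clearly induced genes over the same 25 mice. The closest 3 are given as a description, without list members such as Sgk1 (r = 0.79 with Tsc22d3). For Tsc22d3 they were Mthfd1l (r = 0.81), Arl4d (0.81) and Rsad1 (0.78). For Ddit4 they were Tmem74b (0.83), Depp1 (0.81) and Arl4d (0.78), and for Cebpd they were Jund (0.83), Ppp2r3d (0.82) and ENSMUSG00000095742 (0.82). Depp1, a FOXO target, rose with exercise by 1.96 (adjusted p = 1.06e-08), Mthfd1l by 0.67 (adjusted p = 0.00727) and Arl4d by 0.62 (adjusted p = 0.0007). The others did not pass. Jund was at 0.26 (adjusted p = 0.353), Tmem74b at 0.20 (adjusted p = 0.383) and Rsad1 at 0.03 (adjusted p = 0.897). Ppp2r3d was at -0.07 (adjusted p = 0.728) and ENSMUSG00000095742 at -0.21 (adjusted p = 0.623). Tmem74b was scarce, with a mean of 0.783 CPM.

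Other known glucocorticoid targets of muscle moved in the same direction but not uniformly. Of 22 tested, 15 rose with exercise and 1 fell, against 5.7% and 4.69% of all genes, and their median log2 fold change was 0.63. This list was chosen with earlier results of these data known, so the shares describe it and are no independent test. The largest rises were those of Mt2 (2.64, adjusted p = 3e-07) and Mt1 (1.68, adjusted p = 1.39e-08), which encode metallothioneins, Arrdc2 (1.83, adjusted p = 2.69e-07), the clock gene Per1 (1.5, adjusted p = 4.39e-06) and Foxo1 (1.25, adjusted p = 3.13e-09), which encodes a factor that drives atrophy genes. Cited2 fell by 0.83 (adjusted p = 0.000133). Of the ubiquitin ligases of muscle atrophy, Trim63 (MuRF1) rose by 0.72 (adjusted p = 2.17e-06), while Fbxo32 (atrogin-1) was at -0.15 and did not pass (adjusted p = 0.477). Pdk4, a brake on glucose oxidation, was at 0.10 with an interval from -0.47 to 0.66, and Angptl4, Mstn, Pik3r1 and Sesn1 did not pass either. In WT alone 13 rose, against 2.16% of all genes, and in KO alone 12, against 3.7%, with 1 falling in each, against 1.43% and 2.33%.

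Genes for the proteins that hold the receptor or supply its hormone were followed next, and those that rose encode chaperones and co-chaperones. Of 15 tested, 6 rose with exercise, against 5.7% of all genes, with a median of 0.08 over the list. In WT alone 1 rose and in KO alone 5, against 2.16% and 3.7% of all genes. The interaction test was passed by 0 of the 15 in edgeR or DESeq2. At an unadjusted p under 0.05 in edgeR was 1 of the 15, against 403 of the 16340 genes tested. The 6 were Dnajb1 (2.37, adjusted p = 2.5e-05), Hsp90aa1 (1.04, adjusted p = 6.72e-05), Dnaja1 (0.81, adjusted p = 4.94e-07), Hspa8 (0.52), Stip1 (0.24) and Ptges3 (0.15). In females alone, where 3.03% of all genes changed in either direction, 3 of the 15 rose. Fkbp4, the co-chaperone that opposes Fkbp5, was at 0.07 (interval -0.02 to 0.16), and Hsd11b1, which regenerates active hormone inside cells, at 0.05 (interval -0.13 to 0.24). The mineralocorticoid receptor gene Nr3c2 was at 0.04.

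Close relatives of the 9 genes served to see whether the rises extended to their families. Of 13 tested, 3 rose by 0.28 or less (Tsc22d1, Cebpg and Tsc22d2) and 1 fell (Ddit4l), against 5.7% and 4.69% of all genes, and the median was 0.02. Without TMM scaling, where 5.67% of all genes changed, 1 rose, and in females alone 1 rose and 0 fell. Among 13 partners of the DDIT4, SGK1 and ERRFI1 proteins, Hbegf, an EGF receptor ligand, rose by 1.24 (adjusted p = 0.00324) and Rheb by 0.21 (adjusted p = 0.000753), while Mtor, Tsc1, Tsc2 and Egfr did not pass. These 2 of 13 stand against 5.7% of all genes that rose, and 1 rose without TMM scaling and 0 in females alone. For genotype 0 of the 61 distinct genes in these lists passed in edgeR, against 0.269% of all genes. At an unadjusted p under 0.05 were 4, against 6.23% of all genes, and DESeq2 called 1, Tsc22d4, against 0.496%. For the interaction 0 passed in edgeR or in DESeq2. In edgeR 1 was at an unadjusted p under 0.05, against 403 of the 16340 genes tested.

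**Figure D5:**
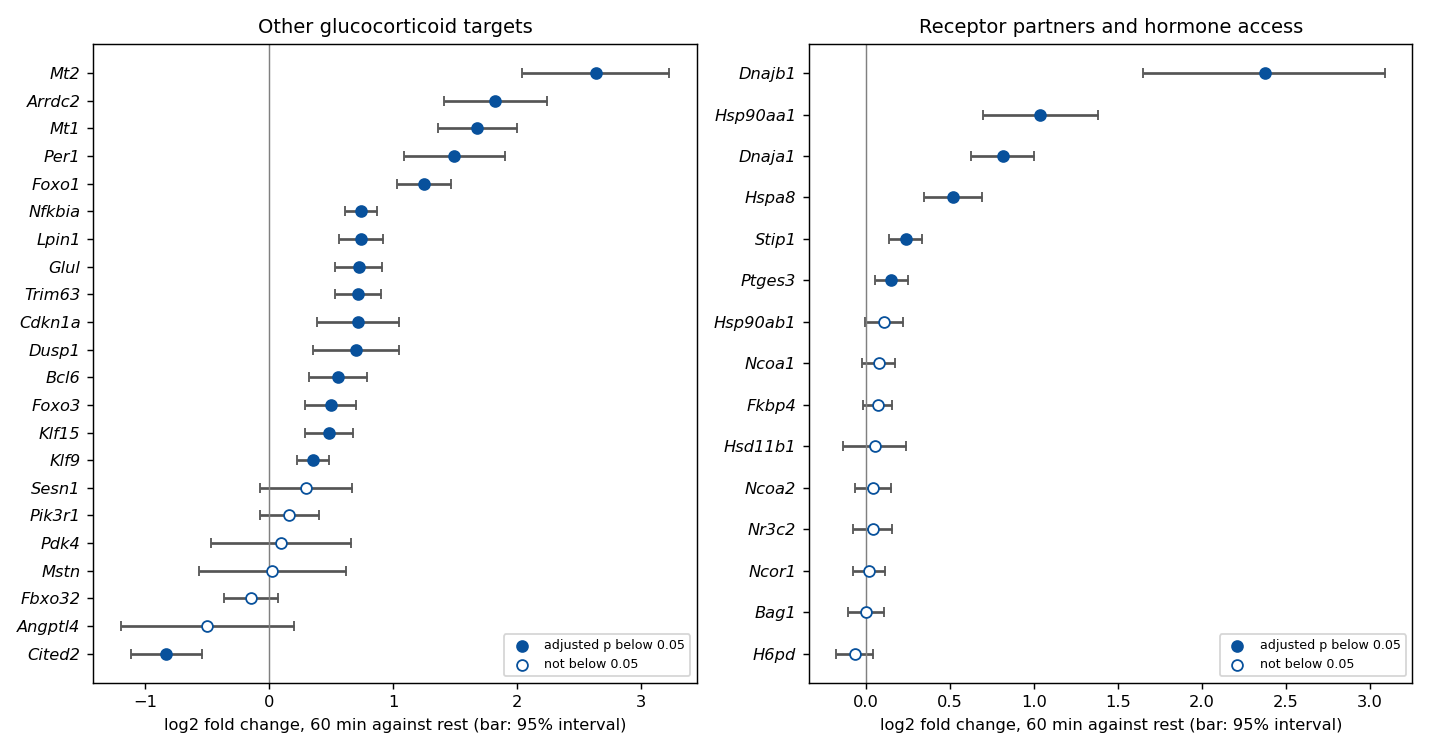
Log2 fold change 60 min after exercise against rest (x axes) for other known glucocorticoid targets of muscle (left) and for receptor partners and genes of hormone access (right), with 95% intervals as bars and filled points where the adjusted p was below 0.05. On the left 15 of 22 lie to the right of 0 and are filled and Cited2 (-0.83) is filled to the left, and on the right 6 of 15 are filled, led by Dnajb1 (2.37).

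The tissue label held. The summed level of 10 myofiber genes lay between 106841 and 180655 CPM, and 0 of them changed with exercise in edgeR, also at an unadjusted p under 0.05. Of 8 endothelial markers 5 fell with exercise, against 4.69% of all genes, and their summed level was 430 to 580 CPM at rest and 369 to 486 after exercise. Of 7 immune markers 1 fell (S100a9), and 0 of 6 fibroblast, 5 adipocyte and 5 erythroid markers changed in edgeR. An unadjusted p under 0.05 was reached by 2 of the 6 fibroblast markers, against 3488 of the 16340 genes tested. No marker list had a defining marker at 0 throughout. In whole muscle, less RNA per cell and fewer cells of a type cannot be told apart, and the part of the endothelial decline in the rises was not tested. Libraries held 22671457 to 37431801 counts, and KO mouse 15, at rest, had the fewest, with 39.5% of its counts on 3 rRNA-related genes. Leaving it out changed no exercise call among the 9 genes.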

How the data were processed

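Total RNA depleted of ribosomal RNA was sequenced from soleus as stranded libraries with 75-bp paired ends. The authors aligned the reads to mm10 and deposited raw counts per gene, with GENCODE release M15 as the gene model per the study's methods. The submitters' processing notes name FastQC 0.11.5, STAR 2.5.3a and featureCounts 1.5.3, and whether counting used strand is not given in the sources used here. Groups and sexes came from the sample labels. The deposited counts were tested with edgeR 4.0.16 (quasi-likelihood, TMM) in R 4.3.3, with 4 group means, or 8 for sex, after filterByExpr (minimum count 10, minimum total 15), and p-values were Benjamini-Hochberg adjusted over all 16340 genes (17389 for sex). Intervals of log2 fold changes are 95% and two-sided. Alternatives were DESeq2 1.42.0, no TMM, no filter, sex as a term, each sex alone and leaving out each mouse. Correlations used log2 CPM with a prior count of 2 and 100000 permutations within groups, two-sided. Scripts were tested on simulated data. All 9 members were named. Up to 5 called genes of each pathway list were named by size of exercise change, and others of the lists were named besides. For each of the 3 members of lowest adjusted p, the 3 most correlated genes outside the 9 were named. Members and lists were chosen with earlier results of these data known. Depth was 22671457 to 37431801 counts per library. Dispersion between mice, 25 in all, sets the errors given. Promoter windows came from RefSeq (GRCm38.p6).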

Additional observations from a re-analysis of the deposited data

Results flagged for a closer look

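Of 36 groups of values (9 genes in 4 groups), 4 held a mouse whose gap to the others was larger than Dixon's 95% limit allows, where chance gives about 1 in 20 groups. Fkbp5 in rested WT mouse 1 was 60.5 CPM, with the other 4 between 30.0 and 32.0. Zbtb16 in the same mouse was 74.9 CPM, with the others between 54.7 and 60.1. Zbtb16 in exercised WT mouse 25 was 121 CPM, with the others between 91.5 and 103. Ddit4 in rested KO mouse 12 was 17.6 CPM, with the others between 4.08 and 9.35.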

How the results depend on the processing

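For the log2 fold change with exercise, 278 of 279 values under the alternatives kept the direction and the side of the threshold for the 9 genes. The exception was Fkbp5 in females alone (0.66, adjusted p = 0.134, against 5.64e-08 to 0.000469 in the other full alternatives). The count of 8 genes rising was 8 without any single mouse and 7 in females alone. Within WT it was 6 to 8 without single mice and within KO 7 to 8, and in females alone, 6 of each genotype, it was 5 in both. The count of genes lower in KO at rest was 0 to 1 without single mice. The count higher in males was 1 to 2, and the count lower in males 0 to 2.

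Some genotype and interaction values changed sign, most of them small, but also those of Errfi1 for genotype at rest and for the interaction, which turned in females alone. Without single mice, the genotype value ran from -0.0658 to 0.00308 for Nr3c1, from -0.113 to 0.0917 for Fkbp5 and from -0.0899 to 0.01 for Cebpb, and the interaction from -0.0367 to 0.132 for Zbtb16, from -0.13 to 0.0663 for Cebpb and from -0.139 to 0.243 for Cebpd. In females alone the genotype value of Nr3c1 was 0.0139, that of Errfi1 at rest 0.0141, and the interaction was -0.0405 for Zbtb16, -0.16 for Sgk1, -0.34 for Cebpd and -0.43 for Errfi1. In males alone the genotype value was 0.0921 for Fkbp5 and 0.00411 for Cebpb, and the interaction 0.0697 for Fkbp5 and 0.15 for Cebpb. None of these passed the test in either fit, and the cause was not tested. The count of endothelial markers that fell, 5 of 8, was 3 in males alone, 1 in females alone and 3 without TMM. Each sex alone holds fewer mice. No paired analysis was possible because each mouse number occurs in a single group.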
